A study of Rattus norvegicus with 13 samples.

Results

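The genes described here are 9 receptors for catecholamines, the adrenergic receptors Adrb1, Adrb3, Adra1a, Adra1b, Adra1d, Adra2a and Adra2c and the dopamine receptors Drd1 and Drd2, read in rat fat. They were selected by symbol in the platform's probe annotation out of 14506 genes, each had 1 probe set, and they were picked with earlier results of these arrays in view, in which Drd1 had stood out for its small p. The level of each receptor and its difference between the groups are therefore given as descriptions. The animals were female Sprague Dawley rats, an outbred strain, aged 14 weeks. All were born to mothers on chow, were weaned at 3 weeks and ate chow themselves. The groups differed in the father, who had eaten chow with 9% fat (7 daughters, called control) or pellets with 43% fat (6 daughters, called high-fat) and was mated at 15 weeks of age. The labels give each daughter a number, give no depot for the fat, and do not tell whether some of them were sisters. The p-values below measure only the spread between these samples and are too small if daughters of a group share a father.

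Adrenergic receptors carry the signal of noradrenaline and adrenaline into the fat cell. Beta receptors act through the G protein Gs to raise cyclic AMP, which activates protein kinase A and starts the release of fatty acids, and Adrb3 is known as the beta receptor of rodent fat cells. Alpha-2 receptors act through Gi and lower cyclic AMP, so they restrain lipolysis. Alpha-1 receptors act through Gq and phospholipase C and are known in vessel walls as well as in fat. Drd1 and Drd2 are dopamine receptors best known from the brain, and couple to Gs and Gi respectively.

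Of the 13 arrays, control 658 stood apart. It had the smallest standard deviation of all log2 values (1.78, against 1.86 to 1.96 on the others) and the highest mean of the smooth muscle markers (11.2, against 9.31 to 10.06). Controls 662 and 664 and high-fat 629 and 619 carried skeletal muscle signal, with means of the muscle markers of 12.0, 11.9, 11.6 and 9.03 against 7.15 to 7.29 on the other 9. Ucp1, the uncoupling protein of brown fat, was highest in controls 658 and 662 and in high-fat 629 and 663, at 9.28, 9.76, 11.0 and 11.0, against 6.11 to 7.40 elsewhere. All 10 adipocyte markers lay above the dim range described next on every array, and their mean was 11.99 ± 0.05 (SD, n = 7) for control fathers and 12.10 ± 0.07 (SD, n = 6) for high-fat fathers. In whole tissue, fewer cells of a type and less RNA per cell cannot be told apart.

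A level on the log2 scale says little by itself, because each probe set has its own background and affinity. The dim range was set by 1240 olfactory and vomeronasal receptor genes, which fat is not known for. On each array the 95th percentile of these genes was taken as the upper edge of the dim range, and it lay between 7.18 and 7.98. Of the 9 receptors, 5 lay above this edge on all 13 arrays, namely Adrb3, Adra1a, Adra1d, Adra2a and Adra2c. Drd1 and Drd2 lay below it on all 13. Adrb1 was above it on 12 arrays and Adra1b on 2. The edge is a description of these probe sets and no measure of detection. Averaged over the arrays, Adra1a, Adra1d, Adra2a and Adra2c lay near the middle of all genes, at percentiles 56.6, 52.93, 51.06 and 52.52. The share of all genes above the edge on all 13 arrays was not counted, so nothing is read from the count of 5.

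**Figure D1:**
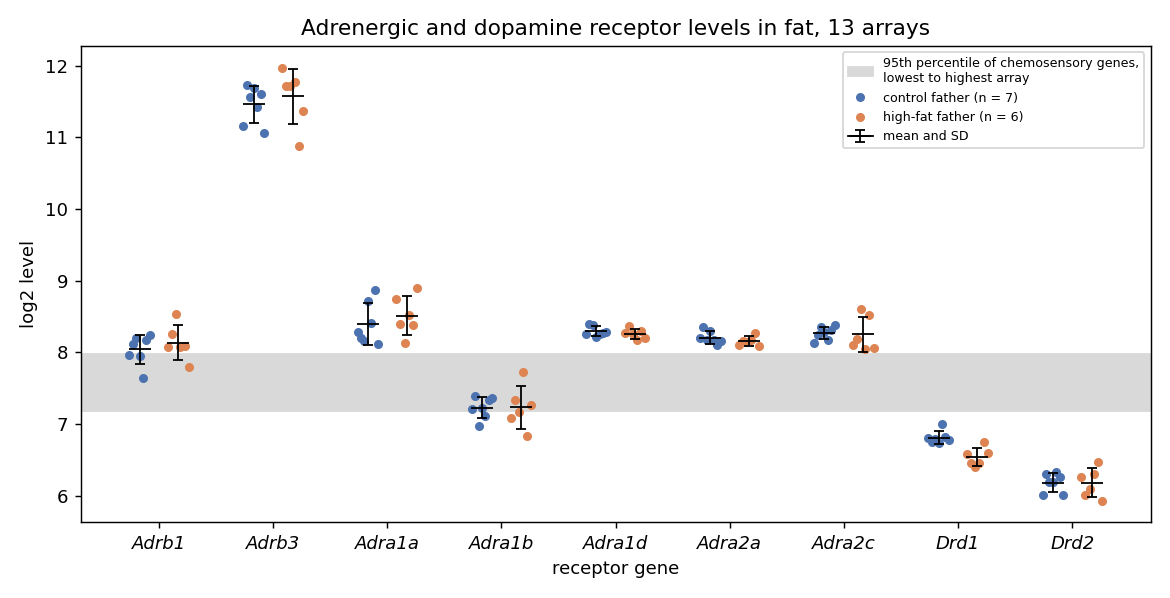
Log2 level of each of the 9 receptor genes (x axis) on each array, blue for 7 daughters of control fathers and orange for 6 daughters of high-fat fathers, with group means and SD as black bars. The grey band runs from the lowest to the highest 95th percentile of chemosensory receptor genes over the arrays (7.18 to 7.98). Adrb3 lies far above the band, Drd1 and Drd2 lie below it, and the groups overlap for every receptor.

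Adrb3 was the one receptor far outside the dim range. Its level ran from 11.1 (daughter 664) through a median of 11.6 to 11.7 (627) in control daughters and from 10.9 (660) through a median of 11.7 to 12.0 (619) in high-fat daughters. The lowest margin over the edge of the dim range was 3.20 log2 units, in high-fat daughter 660, and averaged over the arrays the gene lay at percentile 96.29 of all 14506 genes. Its groups overlapped, with 3 of 6 high-fat daughters within the control range, 2 above it and 1 below. The high-fat mean was 11.57 ± 0.39 (SD, n = 6) and the control mean 11.46 ± 0.26 (SD, n = 7), a log2 difference of 0.11 ± 0.16 (SE) or 1.08-fold. The 95% interval of the difference ran from -0.24 to 0.46.

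Adrb1, the beta receptor best known from the heart, lay near the edge of the dim range. Control daughters ran from 7.64 (658) through 8.12 to 8.24 (664), and high-fat daughters from 7.79 (663) through 8.08 to 8.54 (624). Array 658 was the one on which Adrb1 fell inside the dim range, by 0.34 log2 units. In the high-fat group 4 of 6 daughters lay within the control range and 2 above it, and the log2 difference was 0.10 ± 0.12 (SE).

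The alpha-1 receptors differed in how much they varied and in where they lay relative to the dim range. Adra1a varied between animals, from 8.12 to 8.87 in control and from 8.13 to 8.89 in high-fat daughters, and its highest arrays were control 662 and high-fat 663, which were also high in Ucp1. High Ucp1 and high Adra1a did not always go together. High-fat 619 (8.75) and control 656 (8.72) had Ucp1 of 6.42 and 6.41. High-fat 629 and control 658, the other arrays high in Ucp1, read Adra1a of 8.53 and 8.41. Adra1d varied little, with a total range of 0.23 log2 units over all 13 arrays against 0.77 for Adra1a. The log2 differences between groups were 0.12 ± 0.14 (SE) for Adra1a and -0.04 ± 0.05 for Adra1d. Adra1b read 6.97 to 7.39 in control and 6.83 to 7.73 in high-fat daughters. It lay below the edge of the dim range on 11 arrays and above it in high-fat daughters 620 (7.34) and 629 (7.73). The edge itself differed by array, at 7.18 on 620 and 7.24 on 629 against 7.50 on control 627 and 7.48 on control 664. Those controls read 7.39 and 7.37 for Adra1b, both higher than 620. The log2 difference of Adra1b was 0.01 ± 0.12 (SE).

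The alpha-2 receptors, which oppose the beta receptors in the fat cell, both lay above the dim range on all 13 arrays. Adra2a ran from 8.10 (662) through a median of 8.17 to 8.35 (627) in control daughters and from 8.09 (663) through 8.16 to 8.27 (660) in high-fat daughters. Adra2c ran from 8.14 through 8.28 to 8.38 in controls. In high-fat daughters it spread more widely, from 8.05 in daughter 629 through 8.15 to 8.60 in daughter 624, with 3 daughters below all controls, 2 above all controls and 1 within their range. The log2 differences of the group means were -0.05 ± 0.05 (SE) for Adra2a and -0.02 ± 0.09 for Adra2c. Adra2a was the receptor just inside the rule of the dim range, with a lowest margin of 0.19 on array 658. Adrb1 was just outside it, at -0.34 on the same array. The log2 ratio of Adrb3 to Adra2a within an array was 3.26 ± 0.23 for control fathers (SD, n = 7, from 2.90 to 3.50). For high-fat fathers the ratio was 3.42 ± 0.44 (SD, n = 6, from 2.61 to 3.88). Adra2a spanned 0.26 log2 units over the 13 arrays against 1.09 for Adrb3, so the ratio mostly followed Adrb3. Because the ratio joins 2 probe sets, its size has no meaning of its own, and the groups overlapped.

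Drd1 had the largest difference of the 9 receptors, and its levels were dim. Control daughters ran from 6.73 (656) through a median of 6.78 to 6.997 (658) and high-fat daughters from 6.39 (624) through 6.52 to 6.75 (660). In the high-fat group 5 of 6 daughters lay below every control, and daughter 660 (6.75) lay between controls 656 and 627. The high-fat mean was 6.54 ± 0.13 (SD, n = 6) and the control mean 6.81 ± 0.09 (SD, n = 7). The log2 difference was -0.27 ± 0.06 (SE), with a 95% interval from -0.41 to -0.13, or 0.831-fold. On all 13 arrays Drd1 was under the edge of the dim range, by 0.54 to 1.04 log2 units, and 80.16% of the chemosensory genes had a lower mean. It was above the Y-linked Sry, which female tissue lacks, on 10 of 13 arrays. Drd2 was dimmer, from 6.01 to 6.32 in control and from 5.93 to 6.47 in high-fat daughters, with a log2 difference of 0.00 ± 0.09 (SE), and it was above Sry on 1 of 13 arrays.

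The levels of dim genes as a class also differed between the groups. The median of the 1240 chemosensory genes lay between 5.77 and 6.55 on control and between 5.58 and 6.21 on high-fat arrays. The median log2 difference of these genes was -0.21, 1205 of them averaged lower in daughters of high-fat fathers, and the median over all 14506 genes was 0.03. Measured from the chemosensory median of its own array, Drd1 stood 0.79 ± 0.24 log2 units higher in control daughters (SD, n = 7, from 0.45 to 1.03) and 0.76 ± 0.17 higher in high-fat daughters (SD, n = 6, from 0.53 to 1.002). On that scale all 6 high-fat values lay within the control range. With the chemosensory median as a covariate in limma instead of subtracted, the log2 difference of Drd1 was -0.20 ± 0.05 (SE), and with the array standard deviation as a covariate it was -0.19 ± 0.05. These values differ with the way the dim level or the spread of the array was taken into account. They do not fix the part of array spread in the Drd1 difference, which was not tested further.

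Across the 13 arrays Drd1 was lower where the array had the larger spread, with Pearson r = -0.774 (permutation p = 0.00136, adjusted p = 0.049 over 36 relations) and Spearman rho = -0.742 (permutation p = 0.00543, adjusted p = 0.14). Without the 2 arrays farthest from the median spread, r was -0.648. With group means taken out of both measures r was -0.781 (permutation, adjusted p = 0.13), and then -0.235 without the 2 farthest arrays, so that within groups the relation rests on those arrays. The 36 relations set each receptor against the array standard deviation and the means of the adipocyte, smooth muscle and thermogenic lists, and 1 passed. Drd1 came into the set through its group difference, and array spread also differed by group. The spread ran from 1.78 to 1.94 on control and from 1.86 to 1.96 on high-fat arrays. The permutation p-values of Drd1 do not allow for that choice, so its relation to array spread is a description. The relation of Drd1 to the adipocyte mean (r = -0.708, rho = -0.714, permutation p = 0.00739 and 0.00798, adjusted p = 0.13 and 0.14, r = -0.482 without the 2 farthest arrays) did not pass. Nor did that of Adrb1 to the smooth muscle mean (r = -0.678, rho = -0.577, permutation p = 0.0154 and 0.0434, adjusted p = 0.19 and 0.39, r = -0.49 without the 2 farthest arrays). For Adrb3 the relation to array spread had r = 0.419 and rho = 0.582 (permutation p = 0.153 and 0.0398, adjusted p = 0.39 for both, r = 0.678 without the 2 farthest arrays). The thermogenic list fell into separate clusters of arrays, 4 at 7.59 to 8.08 and 9 at 6.75 to 7.22, and within the 9 lower arrays 0 of 9 receptors passed in a permutation test of r (0 at an unadjusted p under 0.05, r from -0.399 to 0.47). By rank, Drd1 had rho = 0.70 there (permutation p = 0.0442, adjusted p = 0.55), with r = 0.465.

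**Figure D2:**
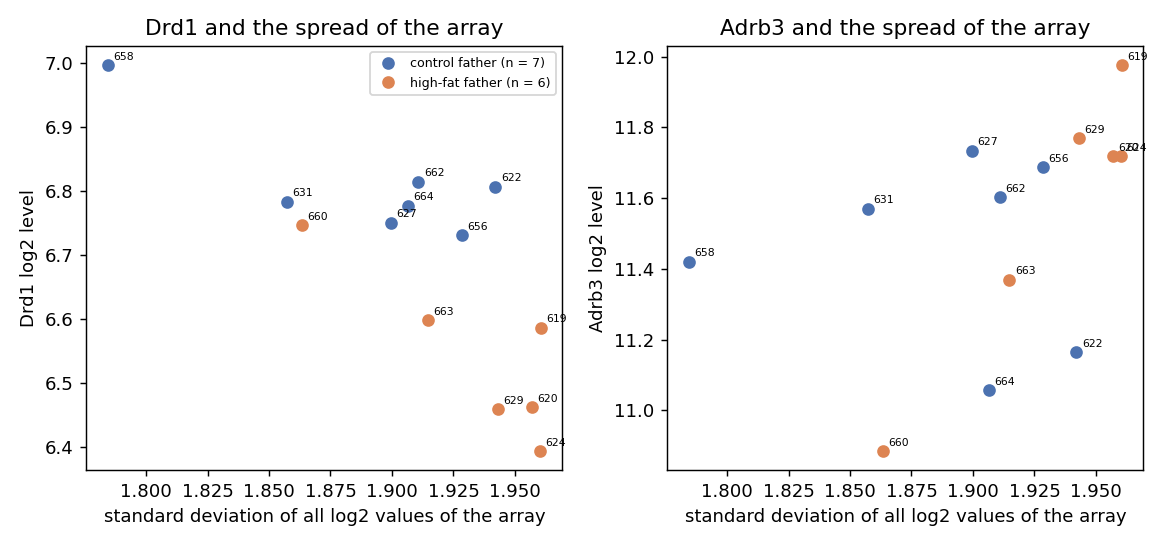
Log2 level of Drd1 (left) and Adrb3 (right) against the standard deviation of all log2 values of the array, 1 point per daughter with its number, blue for control and orange for high-fat fathers. Control 658 has the smallest spread (1.78) and the highest Drd1 (6.997), and the 4 high-fat daughters 619, 620, 624 and 629 combine a wide spread with Drd1 of 6.39 to 6.59.

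In the comparison by diet of the father, 0 of the 9 receptors passed limma's test at a Benjamini-Hochberg adjusted p of 0.05 over 14506 genes, and 0% of all genes did. The adjusted p was 0.53 for Drd1, between 0.65 and 0.75 for Adra2a, Adra1a, Adrb1, Adra1d and Adrb3, and between 0.95 and 0.99 for Adra2c, Adra1b and Drd2. At an unadjusted p under 0.05, 1 receptor of 9 was counted, Drd1, against 7.96% of all genes in either direction and 2.54% lower in the high-fat group. Drd1 had the third smallest p of all genes in limma, and since that brought it into the set, nothing is read from its count. The unmoderated linear model also called 0 genes after adjustment, and 1075 genes at an unadjusted p under 0.05 against 1155 in limma. For the other 8 receptors the log2 differences lay between -0.05 and 0.12, and all 8 intervals included 0. The widest of these intervals was that of Adrb3 and the narrowest that of Adra1d, from -0.14 to 0.07.

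**Figure D3:**
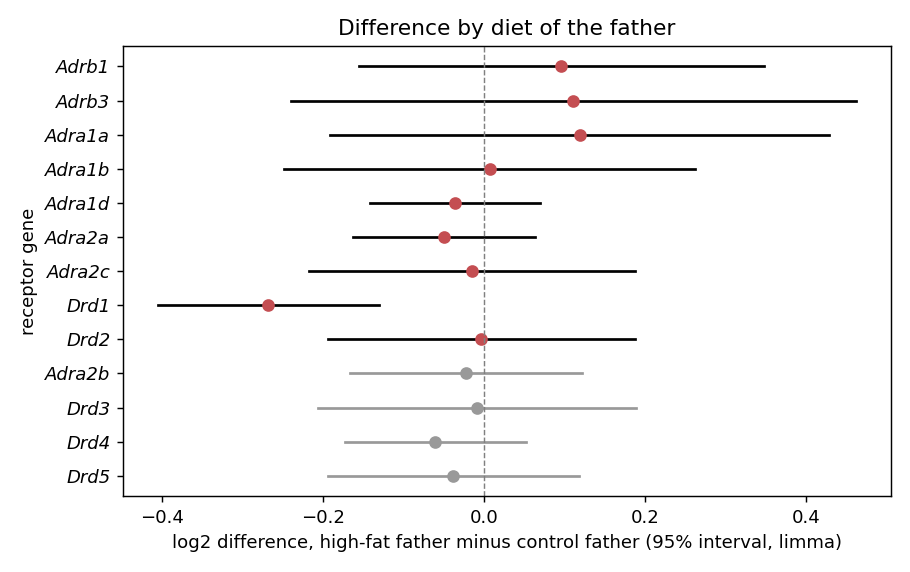
Log2 difference, high-fat minus control father, with limma's 95% interval for the 9 receptors (red) and for 4 further catecholamine receptors with a probe set (grey). The Drd1 interval lies between -0.41 and -0.13, and all others include 0.

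The daughters were numbered in 2 ranges, 619 to 631 (3 control, 4 high-fat) and 656 to 664 (4 control, 2 high-fat), whose meaning the labels do not give. For Adrb3 the group means lay in opposite order in them. In the first range the control mean was 11.49 and the high-fat mean 11.80, a log2 difference of 0.31 ± 0.14 (SE). In the second they were 11.44 and 11.13, a difference of -0.31 ± 0.21. The second high-fat mean stood on daughters 660 (10.9) and 663 (11.4). The interaction of father and range for Adrb3 was -0.62 ± 0.26 (SE) in limma, with an unadjusted p of 0.0343 and an adjusted p of 0.999. At that unadjusted threshold 1 of 9 receptors was counted, against 3.47% of all genes, and 0% of genes passed after adjustment. Without high-fat daughter 660, the Adrb3 difference over both ranges was 0.25 with an adjusted p of 0.32 in limma. Adrb1, Adra1b, Adra2a and Adra2c also differed in sign between the ranges, with log2 differences of 0.14 and -0.06 for Adrb1 and of 0.14 and -0.21 for Adra1b. For Adra2a they were -0.10 ± 0.07 (SE) and 0.00069 ± 0.11, and for Adra2c -0.0071 ± 0.14 and 0.0014 ± 0.15. None of the interactions of these 4 receptors passed in limma (adjusted p = 0.999 for all 4). The share of all genes that differed in sign between the ranges was not counted, so nothing is read from the number of sign changes. The Drd1 difference had the same sign in both, -0.31 ± 0.07 (SE) in the first range and -0.16 ± 0.11 in the second.

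**Figure D4:**
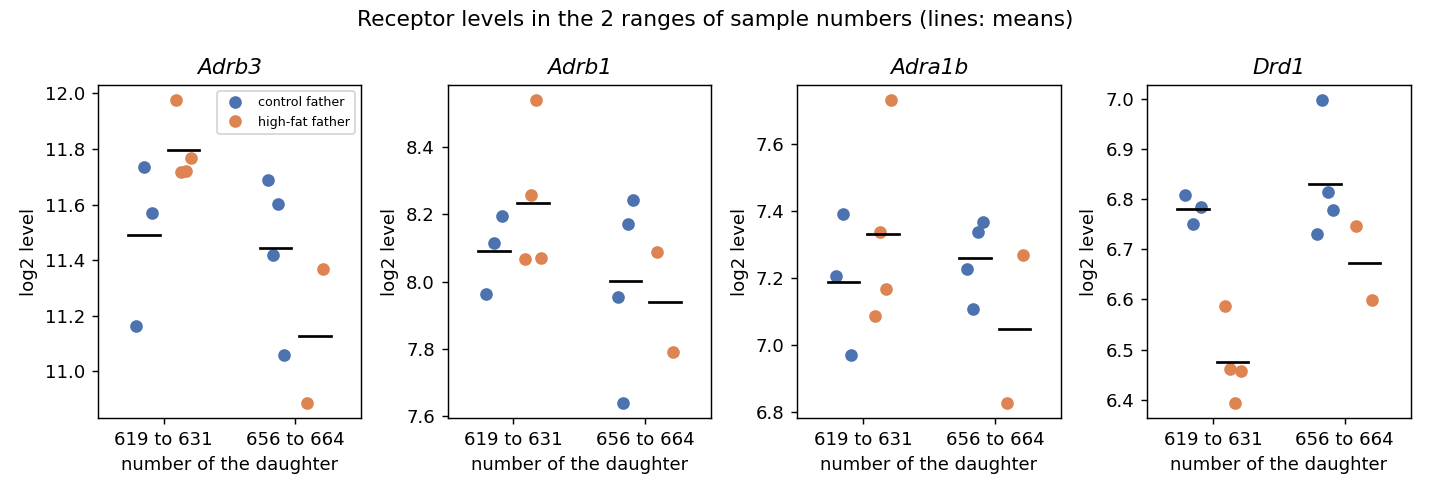
Log2 levels of Adrb3, Adrb1, Adra1b and Drd1 in daughters numbered 619 to 631 and 656 to 664, blue for control and orange for high-fat fathers, with black lines at the means. The high-fat mean of Adrb3 lies above the control mean in the first range (11.80 and 11.49) and below it in the second (11.13 and 11.44), while that of Drd1 lies below in both.

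The 4 further catecholamine receptors with a probe set were Adra2b, the remaining alpha-2 subtype, and the dopamine receptors Drd3, Drd4 and Drd5. Adra2b and Drd5 were each above the edge of the dim range on 11 arrays, with 631 and 658 as the exceptions for both, and Drd3 and Drd4 were above it on 0. Their log2 differences were -0.02 ± 0.07 (SE) for Adra2b, -0.01 ± 0.09 for Drd3, -0.06 ± 0.05 for Drd4 and -0.04 ± 0.07 for Drd5, and 0 of 4 passed limma's test. Compared to 6 decimals, the value of Drd4 was identical on 5 arrays and those of Adra2b and Adra2a on 3 each. Such identical values on 2 or more arrays occurred for 31.6% of all genes.

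Genes that carry the receptor signal inside the cell were mostly bright, and bright genes as a class averaged higher in daughters of high-fat fathers. Over all 14506 genes 58.0% had a higher mean, with a median log2 difference of 0.03 and 5.42% counted as higher at an unadjusted p under 0.05. Among the brighter 7253 genes, those with a mean level over the median gene's, 84.4% had a higher mean, the median was 0.09 and 8.93% were counted as higher. Among the other 7253 genes 31.7% had a higher mean and the median was -0.05. The lists that follow are to be read against these values. Control 658 also bears on them, since without it the median of the brighter genes was 0.05. None of the listed genes passed limma's test after adjustment over all genes.

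Of 17 G protein and adenylyl cyclase genes, 14 were above the middle of the levels and 15 averaged higher, with a median log2 difference of 0.07, below that of brighter genes. Without control 658 the counts were 13 higher of 17 and the median 0.03. At an unadjusted p under 0.05, 2 were higher and 1 lower, namely Adcy6, an adenylyl cyclase (0.15 ± 0.06, SE), Gna11, a Gq-class subunit (0.19 ± 0.08), and Adcy8, a dim cyclase (-0.20 ± 0.08). Gnas, which encodes the Gs subunit that beta receptors use, read 13.29 ± 0.06 (SD, n = 7) and 13.36 ± 0.07 (SD, n = 6). Of 19 genes for protein kinase A, phosphodiesterases and their partners, 14 were above the middle of the levels, 15 had a higher mean and the median was 0.08 (13 and 0.04 without control 658). Counted at the unadjusted threshold were Prkar2b, the regulatory subunit of protein kinase A typical of fat (0.14 ± 0.06), Pde3b, the phosphodiesterase through which insulin lowers cyclic AMP (0.20 ± 0.09), and Prkaca, a catalytic subunit of that kinase (0.18 ± 0.08).

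On the phospholipase C arm, 13 of 14 genes were above the middle of the levels and 13 had a higher mean, with a median of 0.08. Without control 658 the mean was higher for 9 and the median was 0.04. Itpr1, a calcium channel opened by inositol trisphosphate, was the 1 gene counted at the unadjusted threshold (0.12 ± 0.05, SE). Plcb3, a phospholipase C (0.14 ± 0.07), and Itpr2 (0.11 ± 0.07) came next. Of 10 genes for receptor desensitization, 8 had a higher mean (5 without control 658) and 0 were counted. Nedd4, a ubiquitin ligase (0.12 ± 0.06), Grk5, a receptor kinase (0.17 ± 0.11), and Nedd4l (0.19 ± 0.13) had the smallest p in limma.

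Among the effectors of lipolysis, 8 of 9 genes had a higher mean, and the median log2 difference was 0.10, against 0.09 over the brighter genes, to which all 9 belong. Without control 658 these were 8 of 9 and 0.08. The 3 counted as higher at the unadjusted threshold, where 8.93% of brighter genes were, were Fabp4, the fatty acid carrier (0.20 ± 0.06, SE), Lipe, hormone-sensitive lipase (0.16 ± 0.05), and Plin1, the lipid droplet coat (0.18 ± 0.06). These 3 genes were already known from an earlier look at these arrays. Fabp4 and Plin1 are also adipocyte markers, and 9 of the 10 adipocyte markers had a higher mean, with a median of 0.10. Adipoq, the adipokine adiponectin, differed by 0.04 ± 0.06. Markers of other cells had lower means for 9 of 10 smooth muscle genes (median -0.25), 7 of 7 mesothelial genes (-0.37), 10 of 10 T and NK cell genes (-0.16) and 10 of 11 skeletal muscle genes (-0.16). The means were higher for 9 of 9 endothelial genes (0.10) and 6 of 10 macrophage genes (0.06). Above the middle of the levels were 10 smooth muscle, 3 mesothelial, 1 T and NK cell, 6 skeletal muscle, 9 endothelial and 9 macrophage genes. Of all genes not above the middle, 31.7% had a higher mean. Without control 658 the medians were -0.08 for smooth muscle, -0.32 for mesothelium, -0.20 for T and NK cells, -0.41 for skeletal muscle, 0.03 for endothelium and -0.02 for macrophages. None of these markers passed limma's test after adjustment, and their part in the receptor and pathway values was not tested. Of 9 genes measured from the thermogenic list, 2 were above the middle of the levels. In this list 3 had a higher and 6 a lower mean, with a median of -0.01 (5 higher and 0.01 without control 658). Elovl3, a fatty acid elongase, was dim, with group means of 6.40 for control and 6.19 for high-fat fathers, and differed by -0.22 ± 0.09. Gk, glycerol kinase, differed by 0.31 ± 0.21, Fgf21, a secreted factor, by -0.08 ± 0.05, and Ucp1 by 0.48 ± 0.96.

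For the supply and removal of catecholamines, 13 genes were measured, and 4 of them were above the middle of the levels. The mean was lower for 9 and higher for 4, with a median of -0.04 and 0 counted at the unadjusted threshold. Without control 658 the mean was higher for 5 and the median was -0.01. Th, the first enzyme of catecholamine synthesis, read 6.47 ± 0.10 (SD, n = 7) for control fathers and 6.46 ± 0.22 (SD, n = 6) for high-fat fathers. Both Th and Dbh, which makes noradrenaline, were above the edge of the dim range on 0 arrays. Slc6a2, the noradrenaline transporter, was above it on 5 arrays. Maoa, a monoamine oxidase, was above it on all 13 and differed by 0.15 ± 0.07 (SE). Slc22a2, an organic cation transporter (-0.10 ± 0.05), and Slc6a3, the dopamine transporter (-0.10 ± 0.07), had the next smallest p in limma. Of the nerve and Schwann cell markers 8 were measured, 5 with a higher and 3 with a lower mean (3 and 5 without control 658), and the range of their mean was 8.79 to 9.45 in control and 8.96 to 9.37 in high-fat daughters.

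Each receptor above the dim range was set against all other genes over the 13 arrays to find the genes most alike, by Pearson r and as a description. The arrays share their spread and their mix of cells, and each r named is among the highest of all genes by choice. For Adrb3 these were Klc4 (r = 0.831), Coq2 (0.821), Yars2 (0.819), Aatf (0.798) and Psmb5 (0.795), and without the 4 arrays with muscle signal their r fell to between 0.718 and 0.789 over 9 arrays. For Adra1a the most alike genes were Sod1, the copper-zinc superoxide dismutase (r = 0.788), Gsta1 (0.767), Fbxo9 (0.763), Slc22a23 (0.753) and Abca8a (0.742). Without the muscle arrays their r was 0.591 to 0.772. For Adra2c the most alike genes were Mis12 (0.924), Inhbb, a subunit of inhibins and activins made by fat cells (0.887), Afg3l1 (0.873), Mal2 (0.864) and Trim9 (0.846). Their r without the muscle arrays was 0.86 to 0.974, and their mean levels ran from 5.17 (Mis12) to 9.15 (Mal2).

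For Adra1d the most alike genes were Cxadrl1 (r = 0.815), Psd2 (0.79), Cyp11b3 (0.783), Cyp2c23 (0.752) and Fam72a (0.731), with mean levels of 5.38 to 7.26. Without the muscle arrays their r was 0.794 to 0.869. For Adra2a the most alike genes were Ctrl, a chymotrypsin-like enzyme of the pancreas (r = 0.88), Dlgap3 (0.839), Hcrt, the hypocretin precursor of the hypothalamus (0.827), Fbxo24 (0.823) and Mt4 (0.819). Their mean levels were 6.73 to 8.02, and without the muscle arrays their r was 0.871 to 0.951. Between the receptors themselves r over the 13 arrays ran from -0.563 for Adrb1 and Drd1 to 0.637 for Adrb1 and Adra2c. Adrb3 and Adrb1 had r = 0.197.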

How the data were processed

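RNA from fat of 13 rats was measured on Affymetrix arrays, 1 array per animal. The authors deposited log2 levels of 29214 probe sets, made with RMA and Partek per the submitters' processing notes; no version, filter or genome build was found in the labels. RMA corrects background, normalizes arrays toward a common distribution and summarises probes. The deposited arrays still differed in spread, and the cause of that was not tested. That the scale is log2 follows from the range of the values. Scanner files, and so detection calls, were not analysed here. The number of arrays limits the precision.

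Probe sets were named from the platform annotation. Those with 1 symbol were kept (15310), and the brightest per symbol gave 14506 genes. All 9 receptors had 1 probe set, and their Entrez identifiers matched RefSeq (GRCr8). Another 323 had several symbols and 13581 were not listed. Groups came from the sample titles and were compared with limma 3.58.1 in R 4.3.3 (lmFit, eBayes, two-sided, no covariate, Benjamini-Hochberg over all genes), with a second model holding the interaction of father and number range. Intervals are limma's 95% intervals. Correlations used 100000 permutations (numpy 2.4.6, two-sided), adjusted over 36 relations. Settings tried were renewed quantile normalization, centring, a filter on dim genes, probe averaging, variance models, covariates, subsets and leaving out each array. The fit was tested on simulated data. The members, gene lists and settings were chosen with earlier results of these data known. Named were the 9 receptors, the other measured catecholamine receptors, the 3 genes of smallest p in each pathway list, the 5 genes most like each receptor above the dim range, and Ucp1, Lipe and Adipoq. Gnas, Th, Dbh and Slc6a2 were named after their values were seen.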

Additional observations from a re-analysis of the deposited data

Results flagged for a closer look

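Of the 18 sets of values formed by 9 receptors in each group, 1 held an array far from the rest. Control daughter 658 read 6.997 for Drd1, and the next control read 6.815, a gap that is 0.685 of the whole range of the 7 controls. Chance alone sets apart an array in about 1 of 20 such sets. Array 658 also had the smallest spread of all arrays, and without it the log2 difference of Drd1 was -0.24.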

How the results depend on the processing

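Of 257 recomputed receptor differences, 255 moved by less than the residual standard deviation of that receptor. The 2 that moved more were those of Adrb3 (-0.31) and Drd1 (-0.16) in daughters 656 to 664 alone. For every receptor but Drd1 that standard deviation is larger than the difference itself, so the count does not show stable differences. Adra1b, at 0.01 on all arrays and -0.21 in daughters 656 to 664, is among the 255. Leaving out each array in turn gave differences of 0.03 to 0.25 for Adrb3 and of -0.31 to -0.24 for Drd1. Drd1 kept its sign in all 28 settings, with an unadjusted p under 0.05 in 27 and a smallest adjusted p of 0.28. Its small p on these arrays brought Drd1 into the set, and the settings reuse the same arrays. Nothing is therefore read from these counts for Drd1. Adrb1, Adrb3, Adra1b, Adra2a, Adra2c and Drd2 changed sign in 2, 4, 11, 1, 10 and 14 settings. No setting gave an adjusted p under 0.05 for any gene, in limma or in the unmoderated model. The number of receptors above the dim range was 5. It was 1 with the 99th percentile of the chemosensory genes, 1 with the median of all genes as the edge (Adrb3 in both), 7 with Sry and 6 without control 658. The count of genes at an unadjusted p under 0.05 (1155) was 661 among genes above the middle of the levels (fewer genes tested), 2179 with array weights, 611 with the number range, 407 with the array standard deviation and 368 with the chemosensory median as a covariate. It was 550 without the 4 muscle arrays, 1990 in daughters 619 to 631 and 135 in daughters 656 to 664 (fewer arrays), and 508 to 2508 leaving out 1 array, with over 1.5-fold shifts without 624 (508), 619 (591), 620 (593), 658 (682), 631 (713), 622 (1774) or 660 (2508). Of these genes 68.1% were higher, 82.9% with centring, 71.4% after renewed quantile normalization, 97% among genes above the middle of the levels, 51.5% when the 3 arrays with the least spread were left out and 44.2% within the range 619 to 631, where most were lower. The correlation of Drd1 with array spread lost its call with group means taken out (-0.781), without the muscle arrays (-0.80) and without the 4 arrays of highest Ucp1 (-0.676). The cause of these shifts was not tested. The settings without the Ucp1 arrays, with the chemosensory median and without 658 for the dim range and the lists were chosen after seeing the data. No paired analysis was possible because the groups share no replicate numbers. The number of arrays and the unassessed background limit what the dim receptors can show.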
